A study of Brassica rapa with 8 samples.

Results

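The transcriptomes of Chinese cabbage (*B. rapa*) seedlings treated with IAA-Ala were compared with those of seedlings treated with IPA-Ala. The 4 libraries concerned, 2 per treatment, were chosen by the treatment in the sample labels from the 8 libraries of the series. In both compounds alanine is linked to an indole acid, which is indole-3-acetic acid in IAA-Ala and indole-3-propionic acid in IPA-Ala, whose side chain is longer by a methylene group. Seedlings of the cultivar Cantonner Witkrop were 1 day old when they were moved to agar with 0.01 mM of either conjugate, and they were kept in continuous light at 22 °C. The treatment protocol gives 24 h for all groups, whereas the titles of all samples give 3 h, so dose and time were matched between the compounds under either reading. Seedlings with 0.01 mM IBA-Ala, whose acid is indole-3-butyric acid, and control seedlings on agar without hormone had 2 libraries each and are given here as levels beside the comparison. RNA came from 100 mg of whole seedlings, so that root, hypocotyl and cotyledons were measured together, and fewer cells of a kind cannot be told apart from less RNA per cell. The files pair no gene with a name, and the labelled tissue could not be checked against marker genes.

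Auxin acts in plants by bringing Aux/IAA repressors to their degradation, which frees auxin response factors to transcribe early genes of the *GH3*, *SAUR* and *Aux/IAA* families. Conjugates of auxin with amino acids are regarded as stores, from which amidohydrolases of the ILR1/ILL family release the free acid. The level of free auxin also depends on synthesis by YUC enzymes, on conjugation by GH3 enzymes, on oxidation by DAO1 and on glucosylation by UGT enzymes. The comparison asks where a conjugate with a longer side chain differs in its transcripts from the conjugate of the main natural auxin.

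The IAA-Ala libraries held 19521990 and 19195937 counts on genes, those of IPA-Ala 17323293 and 17275387, and those of IBA-Ala and the control between 16616214 and 18669504. Values are CPM, the counts of a gene relative to the library total scaled by the TMM method over the 8 libraries. A library without a count of a gene has an upper limit of 3 counts, between 0.153 and 0.189 CPM, which covers counting error only. Replicates of a treatment differed by more than sampling noise, with a chi-square per gene of 22.8 (IAA-Ala) and 22.2 (IPA-Ala), where counting alone gives about 1. Reads aligned at several places numbered between 2432970 and 2881490 per library and belong to no gene, so the levels of near-identical gene copies are uncertain.

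Of 26762 genes tested between the treatments, edgeR's quasi-likelihood test found 396 higher and 230 lower after IAA-Ala than after IPA-Ala, with a Benjamini-Hochberg adjusted p below 0.05. These 626 genes are 2.34% of those tested, and the higher ones make up 1.48% and the lower ones 0.859%. At the study's threshold of 0.01 there were 0 genes (0%), as the smallest adjusted p from edgeR was 0.0312, while 6076 genes (22.7%) had an unadjusted p below 0.05. DESeq2, the tool of the study, called 897 genes (3.35%) at 0.01, of which 574 were higher and 323 lower after IAA-Ala, and 1823 (6.81%) at 0.05. These shares are over all 26762 genes, though DESeq2 gave no adjusted p for 8302 of them at 0.01. The plot of all genes shows the 626 genes as 2 bands above and below the bulk.

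**Figure D1:**
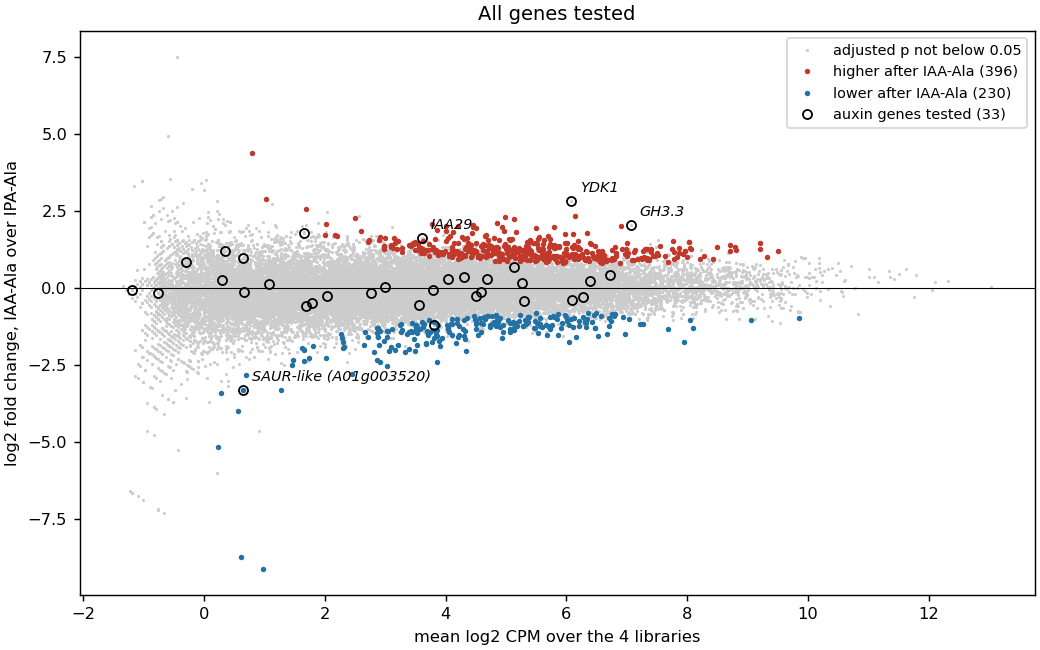
Log2 fold change of IAA-Ala over IPA-Ala (vertical axis) against the mean log2 CPM of the 4 libraries (horizontal axis) for the 26762 genes tested, with the 396 genes higher and the 230 lower after IAA-Ala in colour and the 33 auxin genes tested as open circles. The genes called lie mostly at middle and high levels, and 1 auxin gene, a *SAUR*-like gene, is among them.

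The differences called were mostly moderate in size, with absolute log2 fold changes from 0.797 to 9.11. The median log2 fold change was 1.20 for the genes higher and −1.28 for those lower after IAA-Ala, and 511 of the 626 genes had an absolute value of at least 1. Over all genes tested, the median log2 fold change was −0.02 and the median absolute value 0.36. Calls increased with the level of the gene, since 4.93% of the genes in the highest expression quartile were called and 0.254% of those in the lowest. The chromosome label in the identifiers gave shares called between 1.98% on A10 and 2.66% on A04 over the chromosomes, and 0 of the 31 genes with the label Ann in place of a chromosome were called. In all 626 genes both IAA-Ala libraries lay on one side of both IPA-Ala libraries. The same held for 14242 (53.2%) of the genes tested, with 7068 (26.4%) above and 7174 (26.8%) below. With 2 libraries per treatment an exact permutation test of a single gene cannot give a two-sided p below 0.333, so that each call rests on the spread that edgeR shares between genes.

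The libraries of the 2 treatments were further apart than replicates, though not by much. Over the genes tested, IAA-Ala and IPA-Ala libraries differed by a root mean square of log2 CPM that averaged 0.745 and lay between 0.677 and 0.821. The IAA-Ala replicates were 0.640 apart and the IPA-Ala replicates 0.551 apart. IAA-Ala replicate 1 was the more distant one, at 0.821 and 0.786 from the IPA-Ala libraries, and IAA-Ala replicate 2 lay at 0.677 and 0.697.

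The number of calls depended on single libraries. Without IPA-Ala replicate 1 and without IPA-Ala replicate 2, 0 genes had an adjusted p below 0.05 in edgeR, without IAA-Ala replicate 1 there were 128, and without IAA-Ala replicate 2 there were 993. When the spread was taken from all 8 libraries in one fit, 0 genes passed 0.05, whereas 581 and 548 passed when control replicate 1 or control replicate 2 was left out of that fit, an alternative added after the data were seen. In each of these fits all 626 genes kept their direction. With no overlap between the treatments in any of them, the direction could hardly change, so this does not offset the lost calls.

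The extremes among the genes called with at least 10 counts in each of the 4 libraries carry identifiers without a name. BraA07g005240.3C had 131 and 108 CPM after IAA-Ala, against 19.7 and 27.5 CPM after IPA-Ala, 37.1 and 25.7 after IBA-Ala and 46.0 and 65.3 in the control. It was higher after IAA-Ala than in each of the other 6 libraries, with a log2 fold change over IPA-Ala of 2.33 (standard error, SE, 0.22, edgeR adjusted p = 0.0312). BraA08g019480.3C had 63.3 and 42.7 CPM after IAA-Ala, against 10.01 and 11.6 CPM after IPA-Ala. The log2 difference was 2.29 (SE 0.24, edgeR adjusted p = 0.0312). Its control replicates stood at 9.90 and 22.0 CPM, so that one was level with IPA-Ala and the other lay between the treatments. BraA06g005750.3C fell to 0.865 and 1.90 CPM after IAA-Ala, against 8.03 and 11.1 CPM after IPA-Ala and 3.54 and 4.09 CPM in the control, with a log2 fold change of −2.79 over IPA-Ala (SE 0.41, edgeR adjusted p = 0.0312). The control thus lay between the treatments for this gene. BraA03g053840.3C had 3.19 and 1.68 CPM after IAA-Ala, against 13.9 and 13.9 CPM after IPA-Ala. The log2 difference was −2.51 (SE 0.33, edgeR adjusted p = 0.0312). Its control replicates, at 3.64 and 1.26 CPM, lay near the range of the IAA-Ala libraries. None of these 4 genes passed 0.05 in edgeR without IPA-Ala replicate 1, without IPA-Ala replicate 2 or with all 8 libraries in one fit. All kept their direction when 1 library was left out, which adds little, since their treatments did not overlap. The log2 fold changes then lay from 2.11 to 2.60 for BraA07g005240.3C and from 1.98 to 2.55 for BraA08g019480.3C. For BraA06g005750.3C they lay from −3.46 to −2.33, and for BraA03g053840.3C from −3.04 to −2.12. BraA03g053840.3C passed 0.05 in 9 of 16 alternatives and each of the others in 11 of 16, and over the alternatives the adjusted p of edgeR or DESeq2 lay between 1.07e-15 and 0.387.

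The study names 42 auxin genes by identifier, after their closest *Arabidopsis thaliana* genes, and chose 12 of them as DEGs against the control on these same libraries. The identifiers of the other 30 are printed only in a picture of the study and were read from it. Of the 42, 33 passed the filter on low counts. The other 9 had at most 8 counts in each of the 4 libraries. They were *GH3.8*, *GH3.12*, a *GH3* family gene (BraA08g026630.3C), *YUC8*, *YUC9*, *YUC10*, *YUC11*, a further *YUC* gene (BraA01g005540.3C) and *UGT84B1*, of which *GH3.12*, *YUC10*, *YUC11* and *UGT84B1* had no count in any of the 8 libraries. Of the 33 genes tested, 1 was called at an adjusted p below 0.05, lower after IAA-Ala, against a background of 2.34%. For 9 of 33 (27.3%) the unadjusted p was below 0.05, where the background was 22.7%, and the libraries of the treatments did not overlap for 14 of 33, where it was 53.2%. The median log2 fold change was 0.02 with 17 genes above 0 and 16 below, and the median absolute value of 0.37 was next to the 0.36 of all genes. As a list, the auxin genes thus had calls and sizes of difference near those of genes in general. The larger differences stood in a few of them.

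**Figure D2:**
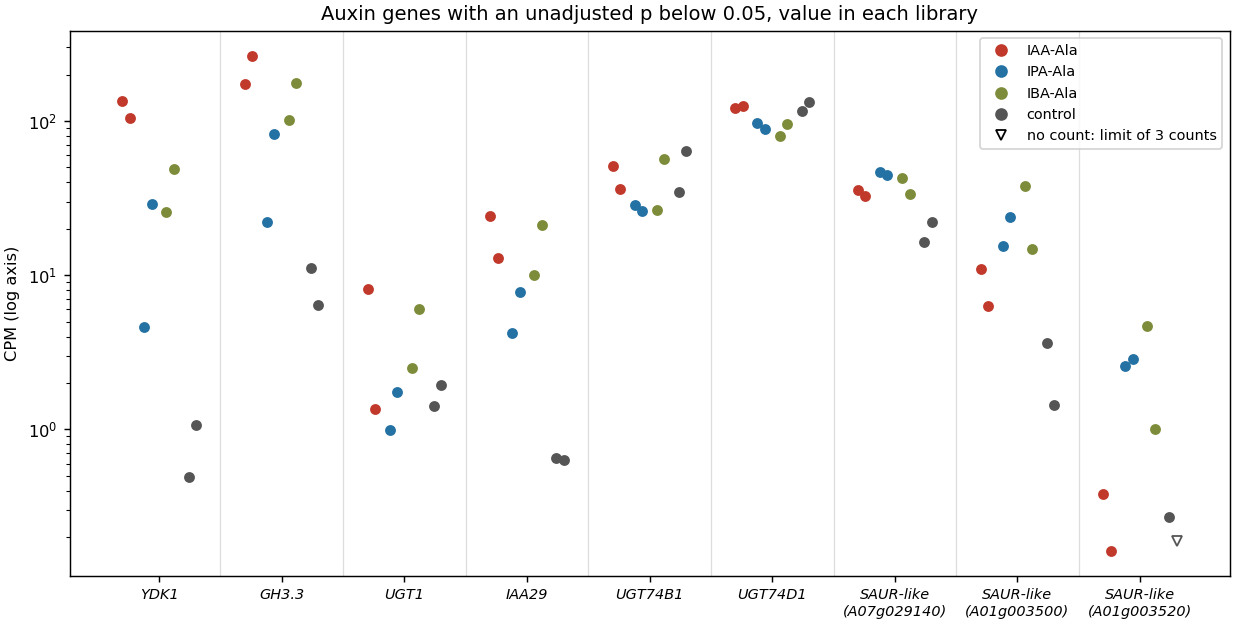
CPM (log axis) in each of the 8 libraries for the 9 auxin genes with an unadjusted p below 0.05 between IAA-Ala and IPA-Ala, in order of their log2 fold change, with 2 points per group and an open triangle for the upper limit of a library without a count. For *YDK1*, *GH3.3* and *IAA29* both IAA-Ala libraries lie above both IPA-Ala libraries, and for the 3 *SAUR*-like genes they lie below.

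GH3 enzymes join acids such as IAA to amino acids, and *YDK1* (*GH3.2*), *GH3.3*, *GH3.1*, *GH3.6* and *GH3.17* belong to the *Arabidopsis* enzymes that act on IAA. *YDK1* (BraA01g001510.3C) had 135 and 105 CPM after IAA-Ala, against 4.60 and 29.1 CPM after IPA-Ala, with 25.9 and 49.2 CPM after IBA-Ala and 0.490 and 1.07 CPM in the control. Both IAA-Ala libraries were above the other 6, while the IPA-Ala replicates differed strongly from each other and both lay above the control. The log2 fold change over IPA-Ala was 2.82 (standard error 0.62, 95% interval from 1.41 to 4.24), and its adjusted p of 0.0550 in edgeR was above 0.05. *GH3.3* (BraA09g054360.3C) had 174 and 264 CPM after IAA-Ala, against 22.3 and 83.0 CPM after IPA-Ala, with 102 and 178 CPM after IBA-Ala and 11.2 and 6.43 CPM in the control. Its treatments did not overlap, and the IPA-Ala replicates again stood far apart, with replicate 1 the lower in both genes. The log2 fold change was 2.05 (SE 0.51, 95% interval from 0.90 to 3.21, edgeR adjusted p = 0.0687). With 1 of the 4 libraries left out, *YDK1* had log2 fold changes from 2.04 to 4.71 and *GH3.3* from 1.397 to 3.298. DESeq2 gave an adjusted p of 0.106 for *YDK1* and of 0.132 for *GH3.3*. Both passed 0.05 in edgeR with the replicate block in the 4 libraries, but in most alternatives neither passed.

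The other 7 *GH3* genes tested had an unadjusted p above 0.05 from edgeR. *GH3.1* (BraA09g010220.3C) had 2.43 and 1.47 CPM after IAA-Ala and 0.815 and 1.18 CPM after IPA-Ala, without overlap, and its 95% interval for the log2 fold change ran from −0.26 to 2.18. *GH3.17* (BraA07g011840.3C) had 3.14 and 1.95 CPM after IAA-Ala and 3.49 and 4.14 CPM after IPA-Ala, with an interval from −1.47 to 0.29. For *GH3.6* (BraA02g013860.3C) the IAA-Ala replicates, at 14.6 and 30.8 CPM, enclosed the IPA-Ala replicates at 16.9 and 18.0 CPM. *GH3.15* (BraA03g005710.3C), whose *Arabidopsis* enzyme acts on IBA, had 52.1 and 68.5 CPM after IAA-Ala and 92.1 and 63.8 CPM after IPA-Ala, with an interval from −0.89 to 0.15. For *GH3.11* (BraA05g001430.3C), which conjugates jasmonic acid in *Arabidopsis*, the values were 39.1 and 43.5 CPM after IAA-Ala and 31.7 and 41.6 CPM after IPA-Ala, and the interval from −0.28 to 0.62 was among the narrower ones. *GH3.9* and *GH3.18* overlapped between the treatments, at levels between 0.649 and 1.84 CPM. In all, 0 of 9 *GH3* genes tested were called, where 2.34% of all genes tested were. Of the 9, 6 had a log2 fold change above 0 and 3 below, and their median was 0.27.

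Aux/IAA proteins repress auxin-responsive transcription and are themselves early auxin genes. *IAA29* (BraA03g057220.3C) had 24.2 and 13.0 CPM after IAA-Ala, against 4.19 and 7.78 CPM after IPA-Ala, with 10.1 and 21.2 CPM after IBA-Ala and 0.653 and 0.630 CPM in the control. Its IAA-Ala libraries lay above both IPA-Ala libraries, and all treated libraries lay above the control. The log2 fold change over IPA-Ala was 1.62 (SE 0.38, 95% interval from 0.76 to 2.50, edgeR adjusted p = 0.0618). In DESeq2 its adjusted p was 0.00233, below 0.05, but in most alternatives *IAA29* did not pass 0.05. *IAA2* (BraA03g040660.3C) had 32.7 and 24.3 CPM after IAA-Ala and 20.1 and 26.6 CPM after IPA-Ala, with 5.55 and 3.53 CPM in the control. The treatments overlapped, and the 95% interval of the log2 fold change from −0.24 to 0.81 left room for a difference of up to 0.81 in favour of IAA-Ala. Of these 2 repressors, 0 were called, where 2.34% of all genes tested were, so the count says little about them.

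SAUR proteins are short early auxin proteins, several of which promote cell expansion in *Arabidopsis*. All 4 *SAUR*-like genes had a log2 fold change below 0, with a median of −0.80, and 1 was called, where 2.34% of all genes tested were. BraA01g003520.3C fell to 0.379 and 0.163 CPM after IAA-Ala (7 and 3 counts), against 2.56 and 2.86 CPM after IPA-Ala (44 and 51 counts), with 4.68 and 1.01 CPM after IBA-Ala and 0.272 CPM and no count in the control. The IAA-Ala libraries stood at the level of the control, and both IPA-Ala libraries were above them. Its log2 fold change was −3.29 (SE 0.62, 95% interval from −4.74 to −1.92, edgeR adjusted p = 0.0428). The gene passed the filter on low counts (minimum count 10) only through the IPA-Ala libraries, where it was high, so its call is not independent of the filter. The call was lost with any of the 4 libraries left out, where the adjusted p lay between 0.0508 and 0.387 and the log2 fold change between −4.00 and −2.81, and DESeq2 gave no adjusted p for it. BraA01g003500.3C, close to it in the identifier order, had 10.98 and 6.29 CPM after IAA-Ala, against 15.5 and 23.8 CPM after IPA-Ala and 3.64 and 1.45 CPM in the control. The libraries did not overlap, and the log2 fold change was −1.19 (SE 0.32, 95% interval from −1.93 to −0.45, edgeR adjusted p = 0.0835). DESeq2 gave an adjusted p of 0.0207 for it, but in most alternatives it did not pass 0.05. Whether reads were shared between near-identical *SAUR* copies cannot be read from the counts.

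The other *SAUR*-like genes differed less. BraA07g029140.3C had 35.8 and 32.6 CPM after IAA-Ala, against 46.5 and 44.6 CPM after IPA-Ala and 16.5 and 22.2 CPM in the control, with a log2 fold change of −0.42 (SE 0.17, edgeR adjusted p = 0.199). BraA06g015440.3C had 22.1 and 24.7 CPM after IAA-Ala and 23.3 and 27.6 CPM after IPA-Ala, overlapping, with a 95% interval of the log2 fold change from −0.57 to 0.32. Among the early auxin genes of the study, *YDK1*, *GH3.3* and *IAA29* had positive log2 fold changes with intervals above 0. The *SAUR*-like genes had negative ones, of which 3 had intervals below 0. One of these, BraA01g003520.3C, passed the filter on low counts only through the IPA-Ala libraries. The study listed the first genes as DEGs after IAA-Ala, and the *SAUR*-like genes as further DEGs after IPA-Ala, on these same libraries. That choice favours opposite signs, so the opposite signs are no independent result. Over all genes tested, 12948 of 26762 had a log2 fold change above 0, and an unadjusted p below 0.05 was reached by 11.6% in the direction of a higher and 11.1% in that of a lower level after IAA-Ala. The plot of fold changes shows both groups beside the other auxin genes.

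**Figure D3:**
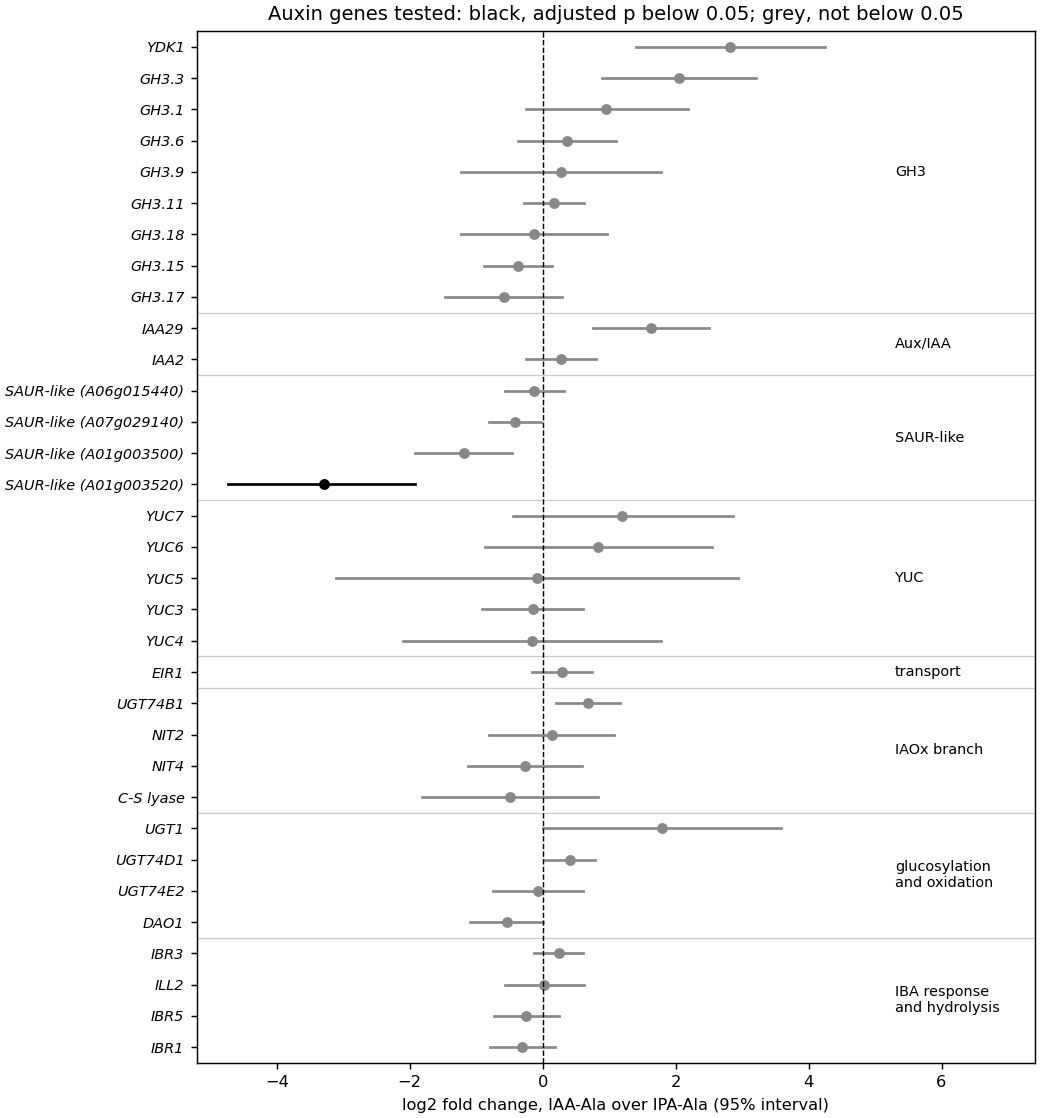
Log2 fold change of IAA-Ala over IPA-Ala with its 95% interval (horizontal axis) for the 33 auxin genes tested, arranged by role. The *SAUR*-like gene BraA01g003520.3C, in black, is the 1 gene with an adjusted p below 0.05, and the intervals of *YDK1*, *GH3.3* and *IAA29* lie above 0 without passing it.

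YUC enzymes convert indole-3-pyruvic acid to IAA. *YUC3* (BraA10g003150.3C) had 7.95 and 4.99 CPM after IAA-Ala and 8.56 and 5.82 CPM after IPA-Ala, with 8.34 and 5.50 CPM after IBA-Ala and 1.79 and 1.20 CPM in the control. The levels of the treatments overlapped almost entirely, and the 95% interval of the log2 fold change ran from −0.91 to 0.61. *YUC7* (BraA05g011570.3C) had 2.49 and 0.814 CPM after IAA-Ala and 0.990 and 0.448 CPM after IPA-Ala, and *YUC6* (BraA06g032880.3C) 1.30 and 0.543 CPM after IAA-Ala and 0.466 and 0.560 CPM after IPA-Ala. Both overlapped between the treatments, with intervals from −0.45 to 2.87 and from −0.86 to 2.54. *YUC4* and *YUC5* had at most 0.651 CPM in each of the 4 libraries, where a standard error of up to 1.32 leaves differences of several fold undetectable. No *YUC* gene (0 of 5 tested) had an adjusted p below 0.05 in edgeR, where 2.34% of all genes tested had. At an unadjusted p below 0.05 there were 0, beside 22.7% of all genes tested. DESeq2 gave an adjusted p only for *YUC3* (0.896), so it could not call *YUC4*, *YUC5*, *YUC6* and *YUC7*.

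EIR1 (PIN2) carries auxin out of root cells in *Arabidopsis*. *EIR1* (BraA03g012590.3C) had 18.1 and 18.4 CPM after IAA-Ala and 14.4 and 15.3 CPM after IPA-Ala, with 6.91 and 9.07 CPM in the control. The libraries did not overlap, but the 95% interval of the log2 fold change included 0 (from −0.16 to 0.75, adjusted p = 0.426 in edgeR). In the branch of auxin synthesis that passes through indole-3-acetaldoxime and is tied to glucosinolates, UGT74B1 glucosylates the thiohydroximates made by C-S lyase, and nitrilases make IAA from its nitrile. *UGT74B1* (BraA09g039260.3C) had 51.2 and 36.5 CPM after IAA-Ala, against 28.5 and 26.0 CPM after IPA-Ala, with 26.6 and 56.9 CPM after IBA-Ala and 34.9 and 63.6 CPM in the control. The IPA-Ala libraries lay below both IAA-Ala and both control libraries and overlapped with IBA-Ala, and the log2 fold change was 0.68 (SE 0.21, 95% interval from 0.20 to 1.17, edgeR adjusted p = 0.109). The gap between its control replicates exceeded that between the treatments. *C-S lyase* (BraA03g054450.3C) had 1.51 and 4.18 CPM after IAA-Ala and 5.82 and 2.18 CPM after IPA-Ala, overlapping, against 7.83 and 8.38 CPM in the control. For *NIT2* and *NIT4* the intervals ran from −0.80 to 1.08 and from −1.13 to 0.60. Of the 4 genes of this branch 0 were called, where 2.34% of all genes tested were.

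Glucosylation and oxidation remove auxin from its active pool. *UGT74D1* (BraA04g022840.3C), an auxin glucosyltransferase in *Arabidopsis*, had 121 and 125 CPM after IAA-Ala, against 96.5 and 88.4 CPM after IPA-Ala and 117 and 134 CPM in the control. The IAA-Ala libraries lay within the control range and the IPA-Ala libraries below it, and the log2 fold change was 0.41 (SE 0.16, 95% interval from 0.03 to 0.78, edgeR adjusted p = 0.188). *UGT74E2* (BraA08g034260.3C), which glucosylates IBA in *Arabidopsis*, had 16.4 and 10.9 CPM after IAA-Ala and 11.2 and 17.3 CPM after IPA-Ala, with 38.9 and 27.2 CPM after IBA-Ala and 5.98 and 7.69 CPM in the control. The treatments covered nearly the same range, with an interval from −0.74 to 0.60. *DAO1* (BraA08g030300.3C), which oxidizes IAA and its conjugates, had 10.98 and 8.36 CPM after IAA-Ala and 13.3 and 14.8 CPM after IPA-Ala, without overlap, and a log2 fold change of −0.54 (SE 0.24, 95% interval from −1.09 to 0.01, edgeR adjusted p = 0.224). *UGT1* (BraA10g004380.3C) had 8.17 and 1.36 CPM after IAA-Ala and 0.990 and 1.74 CPM after IPA-Ala. Its log2 fold change of 1.79 (standard error 0.78) rested on IAA-Ala replicate 1, without which it was −0.01.

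Among the genes of IBA conversion, IBA response and conjugate hydrolysis, 0 of 4 were called in edgeR, where 2.34% of all genes tested were. All had an unadjusted p above 0.05 in edgeR. DESeq2 called 0 of them at 0.05, beside 6.81% of all genes tested. *IBR1* (BraA09g026060.3C) and *IBR3* (BraA05g038700.3C) encode peroxisomal enzymes of IBA conversion in *Arabidopsis*. *IBR1* had 63.3 and 76.9 CPM after IAA-Ala and 71.6 and 101.0 CPM after IPA-Ala, with an interval of the log2 fold change from −0.79 to 0.18. *IBR3* had 95.3 and 89.6 CPM after IAA-Ala and 80.5 and 76.0 CPM after IPA-Ala, with an interval from −0.14 to 0.61. For *IBR5* (BraA07g007390.3C), a phosphatase gene of the IBA response, the interval was from −0.73 to 0.24. *ILL2* (BraA03g012870.3C), an amidohydrolase gene, had 7.63 and 8.52 CPM after IAA-Ala and 8.85 and 7.0005 CPM after IPA-Ala, with 8.38 and 12.0 CPM in the control. Its log2 fold change of 0.02 had an interval from −0.57 to 0.62, so that a difference of more than 0.62 on the log2 scale in either direction lay outside it.

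The levels of the other 4 libraries were read on the 626 genes called, as distances in log2 CPM from the midpoint of the IAA-Ala and IPA-Ala means of each gene. On the 396 genes higher after IAA-Ala, the medians were 0.71 and 0.47 for the IAA-Ala replicates, −0.58 and −0.60 for IPA-Ala, −0.75 and −0.43 for IBA-Ala, and −0.71 and 0.25 for the control. On the 230 genes lower after IAA-Ala, the IAA-Ala replicates lay at −0.65 and −0.58, those of IPA-Ala at 0.59 and 0.67, of IBA-Ala at 0.64 and 0.38 and of the control at 0.49 and −0.40. Both IBA-Ala libraries were thus on the side of IPA-Ala in both sets, while control replicate 1 was on the side of IPA-Ala and control replicate 2 on that of IAA-Ala. For 361 of the 396 and 167 of the 230 genes, both IBA-Ala libraries were nearer to the IPA-Ala mean than to the IAA-Ala mean. This held for 13772 of the 26762 genes tested, which were not picked for a large difference, so the numbers cannot be compared. IBA-Ala replicate 1 was nearer to the IAA-Ala mean for 12 and 34 genes of the sets, and replicate 2 for 28 and 49. Control replicate 1 was nearer to it for 21 and 76, and control replicate 2 for 300 and 173. Nearness to IPA-Ala was thus not particular to IBA-Ala.

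**Figure D4:**
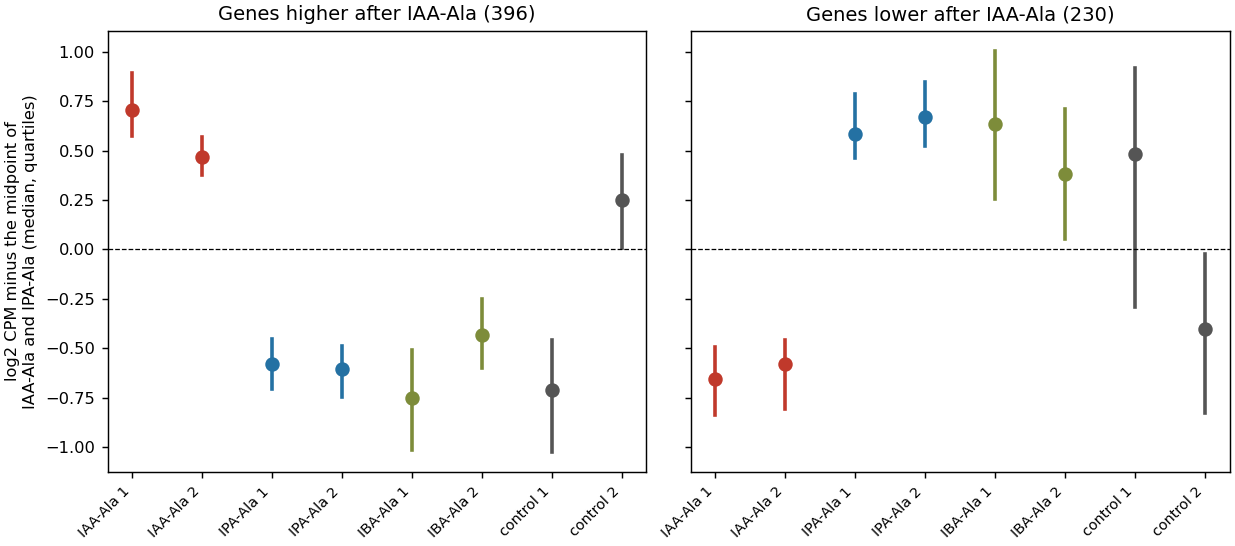
Median (point) and quartiles (line) of the log2 CPM of each library, measured from the midpoint of the IAA-Ala and IPA-Ala means of a gene, over the 396 genes higher (left) and the 230 lower (right) after IAA-Ala. The IBA-Ala libraries lie with IPA-Ala, and the 2 control libraries lie on opposite sides of the midpoint.

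The 2 control libraries, which took no part in the fit, differed from each other along the same genes. Control replicate 2 was above control replicate 1 for 385 of the 396 genes higher after IAA-Ala (97.2%) and below it for 195 of the 230 genes lower after IAA-Ala (84.8%), against 50.5% above and 49.5% below over all genes tested. The median difference of control replicate 2 from control replicate 1 was 0.97 on the log2 scale in the first set and −0.87 in the second, next to 1.20 and −1.26 for IAA-Ala minus IPA-Ala in the same log2 CPM. The gap between the controls had the same sign as the difference between the treatments and was at least as large for 108 (27.3%) and 68 (29.6%) of these genes. Of all genes tested, 10524 (39.3%) met the same rule. These shares cannot be compared, because the genes called were picked for a large difference between the treatments. Across the 26762 genes, which are not independent replicates, the difference between the treatments and that between the control replicates had a Pearson correlation of 0.45. The same correlation with the difference between the IBA-Ala replicates was 0.16. The chi-square per gene between the control replicates was 45.1, above the 22.8 of the IAA-Ala replicates. What set the control libraries apart is not stated in the labels, and its part in the difference between the treatments was not tested.

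**Figure D5:**
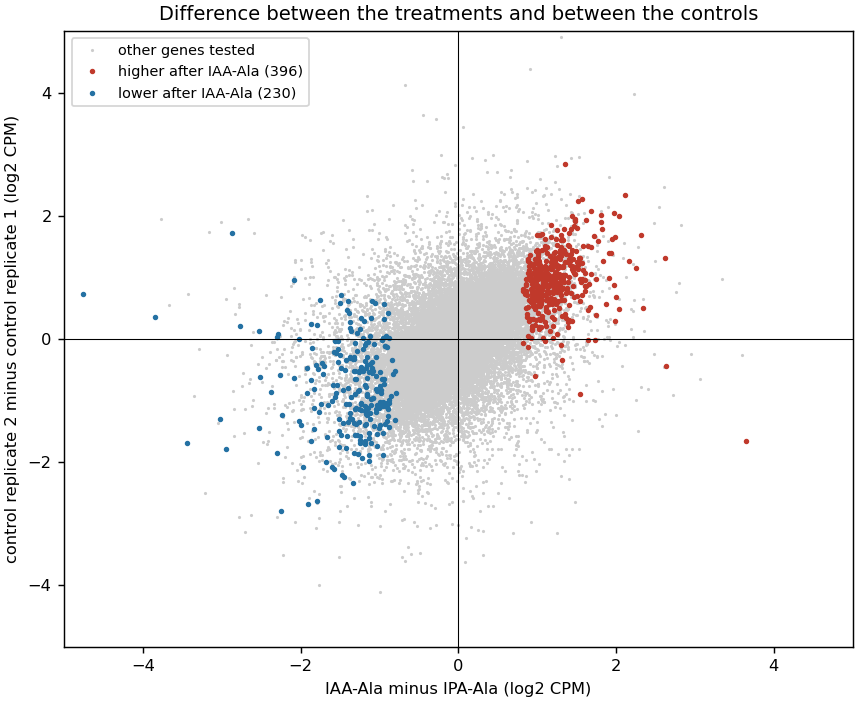
Difference of control replicate 2 from control replicate 1 in log2 CPM (vertical axis) against the difference of IAA-Ala from IPA-Ala (horizontal axis) for the genes tested, with the genes called in colour and 2 genes beyond the axes. Of the 396 genes higher after IAA-Ala, 385 lie above the horizontal zero line, and of the 230 lower, 195 lie below it.

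The auxin genes with an unadjusted p below 0.05 between the treatments were on both sides of this pattern. For *GH3.3*, control replicate 2 was 0.78 below control replicate 1 on the log2 scale, opposite in sign to the 2.32 by which IAA-Ala exceeded IPA-Ala in the same log2 CPM. The signs were also opposite for the *SAUR*-like gene BraA07g029140.3C, with 0.43 between the controls and −0.41 between the treatments. For *IAA29* the controls differed by −0.04, against 1.61 between the treatments. In the other 6 genes the 2 differences had the same sign. For *YDK1* the gap between the controls was 0.98 beside 3.35 between the treatments, at 9 and 17 counts in the control libraries. For the *SAUR*-like genes BraA01g003520.3C and BraA01g003500.3C, control replicate 2 was below replicate 1 by 1.79 and 1.27, with differences between the treatments of −2.94 and −1.20. The gap of 1.79 rests on 5 counts in control replicate 1 and no count in replicate 2, so its size depends on the prior count of 2. Among the glucosyltransferase genes, the gap between the controls was 0.44 for *UGT1*, 0.87 for *UGT74B1* and 0.20 for *UGT74D1*, beside 1.29, 0.67 and 0.41 between the treatments.

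The position of IBA-Ala against the control on the genes called used 4 libraries that took no part in the calls. IBA-Ala was below the control for 314 of the 396 genes higher after IAA-Ala (79.3%) and above it for 174 of the 230 genes lower after IAA-Ala (75.7%), compared with 50.6% below and 49.4% above over all genes tested. This direction came from control replicate 2. With control replicate 1 as the only control, 37.4% of the first set were below it and 46.5% of the second above it, and with control replicate 2 as the only control, 91.7% and 83.9%. The median difference of IBA-Ala from control replicate 1 was 0.12 for the first set and −0.04 for the second, and from control replicate 2 it was −0.85 and 0.91.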

How the data were processed

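RNA of whole seedlings was sequenced in 8 libraries, of which the 2 IAA-Ala and 2 IPA-Ala libraries were compared. The deposited values are raw counts per gene. Single reads, shortened by the authors by 9 bases at their start, were aligned with STAR 2.7.1a to the Chiifu V3.0 genome and counted by strand with HTSeq 1.99.2. The files list 46250 identifiers, of which 0 matched the reference table of gene names, so positions and sequences are not given. The 5 lines of reads on no gene were left out, of which those outside annotated genes were 15.9% to 19.3% of the unique reads per library. Further tables named as normalized were compared with these counts, hold the same values for fewer genes and were used no further.

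The work was done in R 4.3.3 (edgeR 4.0.16, DESeq2 1.42.0), and figures were drawn in Python 3.11.15 by matplotlib 3.10.9 and pandas 2.3.3. Genes with low counts were removed by filterByExpr (minimum count 10, minimum total 15), and the rest were scaled by TMM (factors 0.965 to 1.05) and fitted in the 4 libraries by edgeR's quasi-likelihood test (estimateDisp, glmQLFit without the legacy setting), with Benjamini-Hochberg adjustment over 26762 genes. DEGs are called at 0.01, after the study, and a second rule at 0.05 was set with the number at 0.01 known. The words higher and lower refer to the rule at 0.05. Standard errors were derived from the test, and 95% intervals from its t quantiles. Fold changes used a prior count of 0.125 and log2 CPM one of 2. The procedure was tested on simulated data.

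The genes named are the 42 auxin genes that the study pairs with identifiers, and the 2 with the largest rise and the 2 with the largest fall at an adjusted p below 0.05 with at least 10 counts in each library. The genes, lists and tests were chosen with earlier results of these data known. Replicate numbers are shared between groups but do not pair the samples, so the block is an alternative. Only 1 pair of compounds was compared. The study calls its replicates biological without saying how they were grown, and p-values measure the spread between these libraries. Alternatives were DESeq2, RLE scaling, other filters, all 8 libraries in one fit, the replicate block, the edgeR 3 test, thinned counts, a minimum fold change and each library left out. Crossed replicate numbers and the fit of all libraries without either control were added after the data were seen.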

Additional observations from a re-analysis of the deposited data

How the results depend on the processing

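The number of genes with an adjusted p below 0.05 was 626 in the main fit. It was 1823 with DESeq2, 296 with the edgeR 3 form of the test, 0 without the filter on low counts, 0 with all 8 libraries in one fit and 0 with the replicate block in that fit. With the replicate block in the 4 libraries it was 480, of which 418 were among the 626, and *YDK1* and *GH3.3* passed 0.05. With the replicate numbers crossed, chosen after seeing the data, it was 3609 at 0.05 and 1248 at 0.01. Across genes, the difference between the IAA-Ala replicates and that between the IPA-Ala replicates had shown a correlation of −0.12. With RLE scaling, at least 10 counts in every library, thinned counts and a log2 fold change of at least 1, the number at 0.05 was 536, 601, 459 and 511. At 0.01 the number was 0 in edgeR's fits except for the crossed block and the fit without IAA-Ala replicate 2, and 897 with DESeq2. With each of the 4 libraries left out in turn it lay between 0 and 27 at 0.01 and between 0 and 993 at 0.05. All 626 genes kept their direction in every alternative in which they were tested. Because the treatments did not overlap in any of the 626, a change of direction was hardly possible, and this adds no support to the calls. The causes of the shifts in number were not tested.

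The distance between the treatments, 0.745, was 0.638 with at least 10 counts in every library, 0.829 with a prior count of 0.5 and 0.674 with one of 5. The share of genes higher after IAA-Ala with IBA-Ala below the control, 79.3%, lay between 37.4% and 91.7% with each IBA-Ala or control library left out, and the share of those lower with IBA-Ala above it, 75.7%, between 46.5% and 83.9%; both turned without control replicate 2. With DESeq2 at 0.05, 2 of the 33 auxin genes were called, of which 1 was the Aux/IAA gene *IAA29*. This was near the share of all genes tested, 6.81%, where genes without an adjusted p from DESeq2 count as not called in both.

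Leaving out 1 library reversed the sign of 13 log2 fold changes, of which that of *UGT1* was 1.79 with all 4 libraries. With 1 library left out they lay between −0.26 and 0.82 for *GH3.6*, −0.66 and 0.84 for *GH3.9*, −0.015 and 0.38 for *GH3.11*, −0.32 and 0.10 for *GH3.18*, −0.24 and 0.0066 for the *SAUR*-like gene BraA06g015440.3C, −0.52 and 0.15 for *YUC3*, −0.90 and 0.34 for *YUC4*, −0.83 and 0.91 for *YUC5*, −1.39 and 0.38 for *C-S lyase*, −0.73 and 0.10 for *NIT4*, −0.39 and 0.28 for *UGT74E2*, −0.010 and 2.58 for *UGT1*, and −0.13 and 0.20 for *ILL2*. The extreme genes without a name lost their call without the filter, with all 8 libraries, and without either IPA-Ala replicate, and BraA03g053840.3C also with all 8 libraries but 1 control.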
